A study of Mus musculus with 20 samples.

Results

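The change in polysome loading of liver RNA with knockdown of SNORA73 was examined in 10 mice, using all 20 of the 20 libraries of the series. Polysome loading of a gene in a mouse is its log2 CPM in polysome RNA minus its log2 CPM in total RNA of the same liver, where CPM is counts per 1000000 counts of a library after TMM scaling. The members were therefore the 2 libraries of each mouse number, and the value compared was the loading in 5 mice given the SNORA73 LNA (mice 4, 6, 10, 11 and 12) against 5 mice given the GFP LNA (mice 1, 2, 3, 8 and 9). A difference of 1 on this log2 scale is a 2-fold change in the ratio of polysome to total RNA.

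An LNA carries locked nucleic acid bases and binds a complementary RNA as an antisense strand, and the one against GFP has no target in these animals and served as the control. Both groups were male C57BL/6J mice on chow, with no engineered allele named, and the study's methods for its chow experiment give 3 injections of 3 mg/kg from 8 weeks of age. For its liver polysomes the methods give mice of 10 weeks, treated with the LNAs for 1 week. Cycloheximide was injected into the tail vein shortly before the liver was taken. The labels do not say which age applies to these livers. The labels spell the target Snora37, whereas the study's design and methods describe an LNA against SNORA73, so the libraries were taken as that group.

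Polysomes are mRNAs with several ribosomes on them, and the share of an mRNA found there rises with how actively it is translated. mRNAs of ribosomal proteins and of several elongation factors begin with a C followed by a run of pyrimidines, the terminal oligopyrimidine (TOP) tract, through which mTORC1 and LARP1 set their entry into polysomes. SNORA73 is an H/ACA-box small nucleolar RNA, encoded in introns of Snhg3, that takes part in the processing of ribosomal RNA precursors in the nucleolus. The question addressed by this comparison is which mRNAs were engaged by ribosomes to a different degree, over and above any difference in their abundance, once SNORA73 was targeted.

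Depth was 24098067 to 42023390 counts in total RNA and 17751846 to 33824659 in polysome RNA of the GFP LNA mice, and 20005389 to 29887649 and 14852951 to 24905687 in those of the SNORA73 LNA mice. Hepatocyte markers (6 genes) summed to at least 37808 CPM in every library, while the 6 sinusoidal endothelial markers summed to at most 138 CPM and the 6 Kupffer cell markers to at most 275 CPM. These sums are of CPM before TMM scaling. SNORA73 itself could not be read from these polyadenylated libraries, since Snora73a had at most 2 counts and Snora73b at most 4 in any of them. In whole liver, fewer cells of a type and less RNA per cell cannot be told apart. Because each library was scaled to its own total, a change in the share of all mRNA on polysomes is not visible here.

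The TOP tract is shown at the RefSeq transcription starts (GRCm38.p6) of the ribosomal protein mRNAs with the highest difference in loading (Rps18), the lowest (Rpl15) and the most counts (Rpl23), and of Eef1a1, Tpt1 and Anp32b, to which the results below refer. Each window runs from 10 bases before the start to 20 bases from it, and capitals mark a run of at least 7 pyrimidines that begins with C within 10 bases of the start.
Rps18, chr17:33955646-33955675, minus strand: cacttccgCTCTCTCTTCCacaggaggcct
Rpl15, chr14:18270967-18270996, minus strand: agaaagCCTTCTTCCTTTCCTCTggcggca
Rpl23, chr11:97782420-97782449, minus strand: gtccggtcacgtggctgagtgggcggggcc
Eef1a1, chr9:78481705-78481734, minus strand: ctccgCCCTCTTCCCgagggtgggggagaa
Tpt1, chr14:75845246-75845275, plus strand: cgctgacgacagttccgggggagccgcgga
Anp32b, chr4:46450916-46450945, plus strand: ccctccgtgcgcctcccaagtccgcgctgc
A run of this kind stood at 28 of 58 ribosomal protein genes with a RefSeq start in the table (48.3%), at 15.5% of the 10297 genes tested that have one and at 12.2% of all 32851 starts listed. RefSeq starts can lie some bases away from those used in liver, so the absence of a run in a window says only that these letters are not there.

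Of 13795 genes tested, 1 passed an FDR of 0.05 with higher loading in the SNORA73 LNA mice (0.00725% of genes) and 0 with lower loading, by the quasi-likelihood test of edgeR with the mouse as a block. At an unadjusted p under 0.05 there were 692 genes with higher loading (5.02%) and 416 with lower loading (3.02%), or 8.03% of genes in either direction. The latter count was 245 without GFP LNA mouse 2 and 257 without mouse 3. The median difference over all genes was -0.02, the quartiles were -0.17 and 0.17, and 46.9% of genes had a positive difference. DESeq2 called 51 genes higher and 4 lower with the same model, and limma on the difference per mouse called 0 in either direction.

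The gene past the threshold was Anp32b, which encodes an acidic leucine-rich nuclear phosphoprotein that binds histones (chr4:46450926-46472657). Its loading in the GFP LNA mice was 0.51, 0.03, 0.12, -0.33 and 0.06 in mice 1, 2, 3, 8 and 9. In SNORA73 LNA mice 4, 6, 10, 11 and 12 it was 1.03, 1.15, 1.19, 1.83 and 1.58. The lowest SNORA73 LNA mouse lay above the highest GFP LNA mouse, as was the case in the same direction for 0.834% of all genes. The difference was 1.28 ± 0.17 (SE, n = 5 and 5, edgeR FDR = 0.0349). The difference lay in polysome RNA, where Anp32b was higher by 1.71 on the log2 scale and ranged from 88.5 to 131 CPM with the GFP LNA and from 250 to 675 CPM with the SNORA73 LNA. In total RNA it was higher by 0.44, and the ranges of 90.4 to 126 and 110 to 189 CPM overlapped. Anp32b was higher in all 21 alternative fits, from 1.16 to 1.39, but its FDR was 0.715 without the mouse as a block, and it passed in 4 of the 10 fits that left out 1 mouse. It missed the threshold without GFP LNA mouse 2, 3, 8 or 9 and without SNORA73 LNA mouse 10 or 11.

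The close relatives of Anp32b stood among the genes with the smallest p, although none of them passed the FDR. Anp32a encodes a phosphatase inhibitor and histone-binding protein of the same family. It had a loading of 0.52, 0.12, 0.20, -0.22 and 0.08 in the GFP LNA mice and 0.88, 1.22, 0.81, 1.51 and 0.96 in the SNORA73 LNA mice, with no overlap (0.93 ± 0.15, SE, edgeR FDR = 0.0794). Anp32e, a chaperone of the histone variant H2A.Z, had 0.52, -0.04, 0.08, 0.02 and 0.09 against 0.50, 1.02, 0.91, 1.73 and 1.20. Here SNORA73 LNA mouse 4 lay just under GFP LNA mouse 1, and the difference was 0.94 ± 0.19 (SE, FDR = 0.193). Set, a histone chaperone that also inhibits protein phosphatase 2A, had -0.17, -0.37, -0.33, -0.43 and -0.58 against 0.38, 0.43, 0.30, 0.44 and -0.10, with no overlap (0.67 ± 0.12, FDR = 0.130). For Hmgb1, a DNA-bending chromatin protein, the values were 0.28, -0.08, -0.04, -0.27 and 0.09 against 0.69, 0.85, 0.40, 1.06 and 0.56. The groups did not overlap for Hmgb1 either (0.72 ± 0.14, FDR = 0.134).

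**Figure D1:**
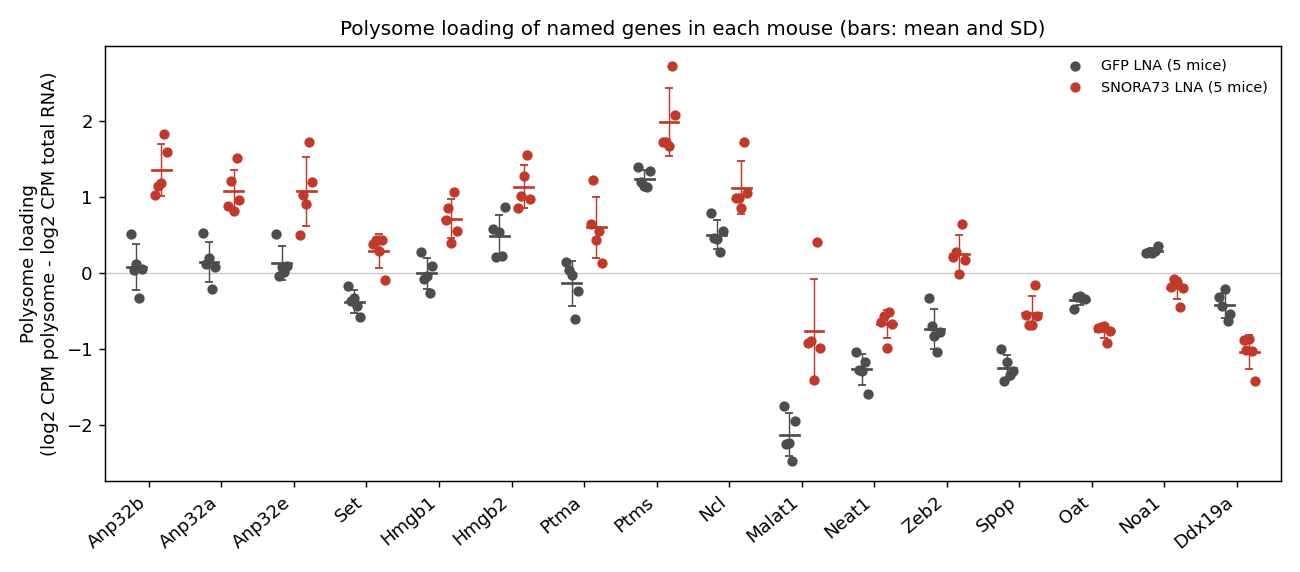
Polysome loading (log2 CPM in polysome RNA minus log2 CPM in total RNA, vertical axis) of 16 genes in each of 5 GFP LNA mice (grey) and 5 SNORA73 LNA mice (red), with bars at the mean and SD of each group. Anp32b runs from -0.33 to 0.51 in the GFP LNA mice and from 1.03 to 1.83 in the SNORA73 LNA mice, and Oat and Noa1 are lower in every SNORA73 LNA mouse than in any GFP LNA mouse.

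Many of these proteins are known for a long stretch of glutamate and aspartate and work on chromatin or in the nucleolus, though no protein sequence was used here and the stretch was checked in none of them. A list of 23 such genes had been put together after values of these data were seen, so its counts describe these mice and support nothing. Its median difference was 0.40, against -0.02 over all genes, and 21 of 23 members were positive (all genes, 46.9%). Of the 23, 13 had an unadjusted p under 0.05 with higher loading (all genes, 5.02%), 0 with lower loading (3.02%), and 1 passed the FDR. In 8 members the groups did not overlap, all of them with higher loading (all genes, 0.834%). The median loading of the list was 0.51, 0.12, 0.20, 0.13 and 0.13 in the GFP LNA mice and 0.61, 0.74, 0.71, 1.31 and 0.82 in the SNORA73 LNA mice, so that the lowest SNORA73 LNA mouse was above GFP LNA mouse 1, itself well above its group.

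Among the other members, Ptms (parathymosin) had the most counts and a loading of 1.14 to 1.39 with the GFP LNA against 1.67 to 2.73 with the SNORA73 LNA, a difference of 0.74 ± 0.17 (SE, edgeR FDR = 0.294). Ptma, which encodes prothymosin alpha, differed by 0.73 ± 0.18 (FDR = 0.334), and the highest GFP LNA mouse at 0.15 overlapped the lowest SNORA73 LNA mouse at 0.13. Smarce1, a subunit of the SWI/SNF chromatin remodelling complex, differed by 0.72 ± 0.16, Hmgb2 by 0.65 ± 0.16 and Ncl, which encodes the nucleolar protein nucleolin, by 0.62 ± 0.15. At the other end Nap1l4, a nucleosome assembly protein, had a difference of -0.11 ± 0.14. In total RNA the median difference of the list between the LNAs was 0.20 and in polysome RNA 0.57, both on the log2 CPM scale. The list contained 2 genes with a start run among the 19 with a RefSeq start (10.5%), and Anp32b had none in the window printed above.

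**Figure D2:**
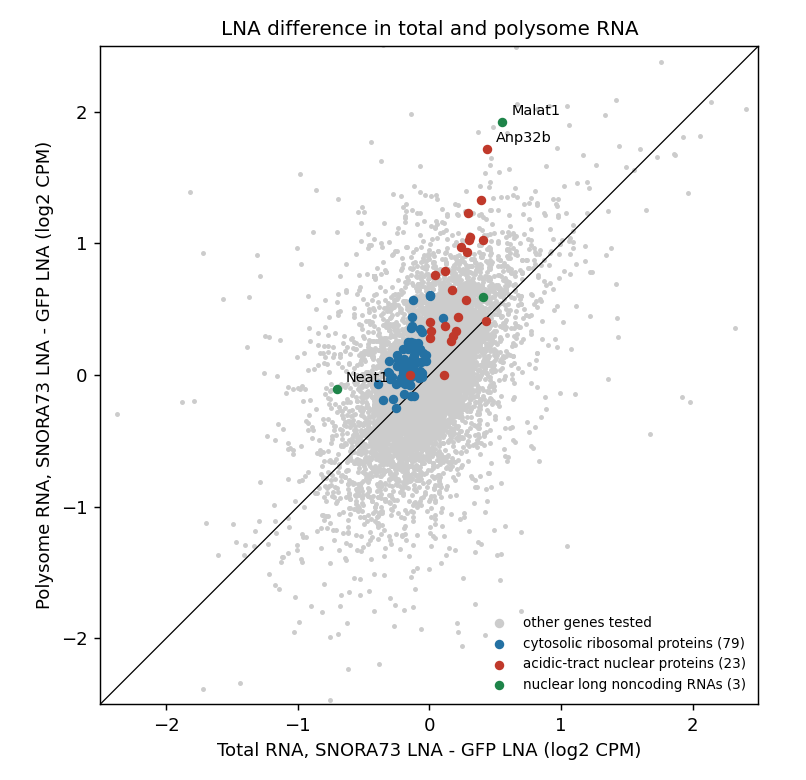
Difference between SNORA73 LNA and GFP LNA mice in total RNA (horizontal axis, log2 CPM) and in polysome RNA (vertical axis, log2 CPM) for all genes tested, with cytosolic ribosomal proteins (blue), acidic-tract nuclear proteins (red) and nuclear long noncoding RNAs (green). Points above the diagonal had higher loading with the SNORA73 LNA, as for 76 of 79 ribosomal protein genes and 21 of 23 acidic-tract genes, and 19 genes lie outside the axes, which end at 2.5.

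The 79 cytosolic ribosomal protein mRNAs leaned to higher loading as a group, by a small amount that the spread between mice covered. Their median difference was 0.26, and 76 of 79 were positive (all genes, 46.9%). Of the 79, 19 had an unadjusted p under 0.05 with higher loading (all genes, 5.02%) and 0 with lower loading (3.02%). None passed the FDR. In 0 of 79 did the groups separate (all genes, 0.834% with higher and 0.906% with lower loading). Their median loading was 0.15, -0.33, -0.33, -0.28 and 0.21 in GFP LNA mice 1, 2, 3, 8 and 9, and 0.01, -0.16, 0.29, 0.16 and 0.37 in SNORA73 LNA mice 4, 6, 10, 11 and 12. GFP LNA mice 1 and 9 were thus within the range of the SNORA73 LNA mice, while mice 2, 3 and 8 were under all of them. The difference came from both RNAs, with a median of -0.15 in total RNA and 0.08 in polysome RNA. It remained positive in all 21 alternative fits, from 0.18 to 0.34.

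Rps18, a protein of the small subunit, had the highest difference in this list. Its loading was -0.45, -0.87, -0.97, -0.84 and -0.17 with the GFP LNA and -0.14, -0.50, 0.53, 0.02 and 0.28 with the SNORA73 LNA, and mouse 6 overlapped the GFP LNA group (0.70 ± 0.19, SE, edgeR FDR = 0.367). Rpl23, of the large subunit and with the most counts, had 0.24, -0.37, -0.42, -0.63 and 0.22 against 0.23, 0.41, 0.15, 0.59 and 0.51 (0.57 ± 0.17, FDR = 0.413). The loading of Rpl15 differed by -0.04 ± 0.12 (FDR = 0.950), and its start window holds the longest run of those printed, of 17 pyrimidines. Over the list, the 28 genes with a run had a median difference of 0.26 and the 30 with a start but no run 0.28. Outside the ribosomal protein and other TOP lists, 1559 genes with a run had a median of -0.02 and 8669 without one -0.03. Whether the tract has a part in these differences was not tested.

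The list of other mRNAs known as TOP mRNAs had a median difference of 0.19, with 15 of 17 positive (all genes, 46.9%). At an unadjusted p under 0.05, 6 had higher loading (all genes, 5.02%) and 0 lower (3.02%). A start run stood at 6 of the 11 with a RefSeq start (54.5%, against 15.5% of genes tested). The window of Tpt1 printed above holds none. Tpt1, the translationally controlled tumour protein, had the highest difference. Its loading was -0.94, -1.61, -1.65, -1.60 and -1.09 with the GFP LNA and -1.02, -1.18, -0.53, -0.87 and -0.70 with the SNORA73 LNA, where mouse 4 lay between GFP LNA mice 1 and 9 and mouse 6 was below both (0.52 ± 0.16, SE, edgeR FDR = 0.467). Eef1a1, which delivers aminoacyl-tRNA to the ribosome, differed by 0.30 ± 0.14 (FDR = 0.610), and the intermediate filament gene Vim by -0.11 ± 0.12. Translation factors and their kinases outside this list had a median of 0.00, from -0.03 to 0.03 over the alternative fits, and 23 of 43 members positive, with 2 higher and 3 lower at unadjusted p values under 0.05 (all genes, 5.02% and 3.02%). Among them Eif1a, an initiation factor of start codon scanning, had a difference of 0.41 ± 0.16 (FDR = 0.545). Eif1, its abundant partner, had -0.20 ± 0.09 (FDR = 0.621), and Eif2ak3, the ER stress kinase PERK, had -0.44 ± 0.20 (FDR = 0.619).

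The mRNAs of mTOR signalling leaned slightly to lower loading, by an amount that the spread between mice covered. Their median difference was -0.10 and 12 of 35 were positive (all genes, 46.9%). The median loading of the list was -0.00 to 0.16 in the GFP LNA mice and -0.17 to 0.24 in the SNORA73 LNA mice, which overlapped. Of the 35, 2 had an unadjusted p under 0.05 with higher loading (all genes, 5.02%) and 5 with lower loading (3.02%), and 0 passed the FDR. In 2 members, Tbc1d7 and Lamtor5, the groups did not overlap, with lower loading (all genes, 0.906%), and both were named after their values were seen. Mtor, the kinase of both mTOR complexes, had a loading of -0.13, -0.11, -0.39, -0.48 and -0.18 with the GFP LNA and -0.37, -0.59, -0.53, -0.17 and -0.60 with the SNORA73 LNA. These ranges overlapped (-0.20 ± 0.13, SE, edgeR FDR = 0.716). Rps6kb1, the S6 kinase, had the highest difference at 0.44 ± 0.12 (FDR = 0.367), with 0.26, 0.11, -0.04, -0.04 and -0.04 against 0.25, 0.55, 0.32, 0.69 and 0.61. Deptor, an inhibitor of mTOR and the most abundant of the list, differed by 0.14 ± 0.10. The lowest value, -0.84 ± 0.62 for the lysosomal GTPase Rragd, rested on few reads, with 0 counts in polysome RNA of SNORA73 LNA mice 10 and 12.

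**Figure D3:**
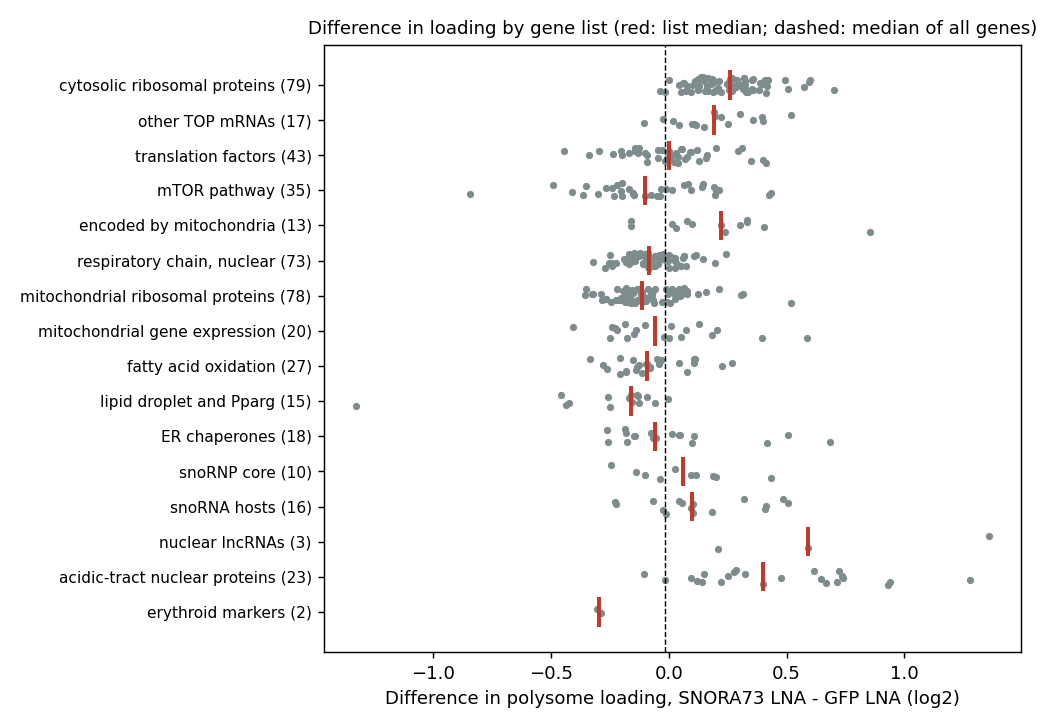
Difference in polysome loading between SNORA73 LNA and GFP LNA mice (log2, horizontal axis) for each gene (grey points) of 16 gene lists, with the number of genes tested in brackets, the list median in red and the median of all genes, -0.02, as a dashed line. The ribosomal protein list has a median of 0.26 and the acidic-tract list of 0.40, while the nuclear respiratory chain, mitochondrial ribosomal protein, fatty acid oxidation and lipid droplet lists lie at or below -0.08.

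mRNAs for mitochondrial proteins made in the cytosol lay on the other side of the median of all genes, by less than the ribosomal proteins did. Medians of this size were not particular to them. Selenoprotein genes and genes of cholesterol synthesis and uptake had -0.08 each, and the shortest quintile of genes by span on the genome had -0.06. Of 73 nuclear genes of the respiratory chain, 17 were positive and the median difference was -0.08, with 1 higher and 2 lower at unadjusted p values under 0.05 (all genes, 46.9% positive, 5.02% higher and 3.02% lower). Without SNORA73 LNA mouse 6 the median was 0.00, and without GFP LNA mouse 9 it was -0.03. Ndufb10, of complex I, had 0.24 ± 0.10 (edgeR FDR = 0.556), the ATP synthase gene Atp5g2 -0.32 ± 0.23, and the most abundant member, Ndufa4, -0.08 ± 0.10. The 78 mitochondrial ribosomal proteins had a median of -0.12 and 19 positive members, with 2 higher and 6 lower at unadjusted p values under 0.05 (all genes, 5.02% and 3.02%). The ends of that list were Mrpl23 at 0.52 ± 0.44 and Mrpl28 at -0.36 ± 0.18, and the abundant Mrpl12 had -0.16 ± 0.12, none of them past the FDR. The median loading of the mitochondrial ribosomal proteins was 0.74 to 0.90 in the GFP LNA mice and 0.52 to 0.87 in the SNORA73 LNA mice, which overlapped.

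For 20 genes of mitochondrial gene expression the median was -0.06. Ppargc1b, a coactivator of mitochondrial biogenesis, had a difference of 0.59 ± 0.21 (edgeR FDR = 0.514), and Tfb1m, which methylates mitochondrial rRNA, had -0.40 ± 0.17 (FDR = 0.564), with its groups apart. The elongation factor gene Tufm had -0.15 ± 0.15. mRNAs encoded by the mitochondrial genome are translated inside mitochondria, and the median loading of this list lay between -4.27 and -2.76 in the GFP LNA mice and between -3.82 and -2.12 in the SNORA73 LNA mice. Their median difference of 0.22 over 13 genes therefore lay well inside the spread between mice, and it was -0.01 without GFP LNA mouse 8 and -0.03 without SNORA73 LNA mouse 6. mt-Atp8 had the highest difference (0.86 ± 0.59) and mt-Co1, with the most counts, had -0.16 ± 0.25.

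Far above the median of its list, the loading of the complex I gene mt-Nd6 was 0.75, 0.05, 0.00, 0.04 and 0.20 with the GFP LNA and 0.31, 0.28, -0.21, 0.07 and -0.21 with the SNORA73 LNA. Its loading overlapped between the groups (-0.16 ± 0.15, SE, edgeR FDR = 0.811), while its level was higher by 0.87 in total RNA and by 0.71 in polysome RNA of the SNORA73 LNA mice. mt-Nd6 overlaps mt-Nd5 on the opposite strand, and although the study describes its reads as stranded, it does not say whether the counting used the strand, so reads of the pair may not have been told apart.

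The list medians of fatty acid oxidation and of lipid droplets did not overlap between the groups. The same held for the acidic-tract and nuclear long noncoding RNA lists, and the groups overlapped in every other list examined. Differences were small in most genes of fatty acid oxidation and of lipid droplets. The lipogenesis and TCA cycle lists also had slightly negative median differences, -0.12 and -0.08, and their groups overlapped. Median loading of 27 genes of fatty acid oxidation and ketogenesis was 0.09, 0.15, 0.16, 0.09 and 0.15 in the GFP LNA mice and -0.04, -0.16, -0.01, 0.03 and 0.02 in the SNORA73 LNA mice, each of which was lower. Of the 27 members, 20 were negative (all genes, 46.9% positive). At unadjusted p values under 0.05, 1 was higher and 2 were lower (all genes, 5.02% and 3.02%), and 0 passed the FDR. The groups did not overlap in 1 member with higher and 1 with lower loading (all genes, 0.834% and 0.906%). The median difference of this list was -0.09. It was -0.04 without SNORA73 LNA mouse 6 and -0.14 without mouse 11. Bdh1, which makes the ketone body beta-hydroxybutyrate, lay on the other side with 0.27 ± 0.09 (FDR = 0.484) and was higher in every SNORA73 LNA mouse, from -0.23 to -0.04, than in any GFP LNA mouse, from -0.45 to -0.32.

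All 15 genes tested of the lipid droplet list were negative (all genes, 46.9% positive), and their median difference was -0.16. At an unadjusted p under 0.05 there were 0 in either direction (all genes, 8.03%). In 0 of 15 did the groups separate (all genes, 0.834% with higher and 0.906% with lower loading). The median loading of the list was 0.11, 0.20, 0.17, 0.24 and 0.35 with the GFP LNA and -0.00, -0.21, 0.07, -0.09 and 0.10 with the SNORA73 LNA, so that mouse 12 lay just below GFP LNA mouse 1. Cidec, a lipid droplet fusion protein, had the lowest value at -1.33 ± 0.65 (edgeR FDR = 0.631), and GFP LNA mouse 3 alone, at 1.75, was far above the others of its group at -0.28 to 0.26. Plin2, the main coat protein of hepatocyte lipid droplets, had -0.13 ± 0.12, and Fitm1, at the upper end, -0.00 ± 0.14. Pparg, the nuclear receptor that drives this programme, had a loading of 0.11, 0.20, -0.02, -0.24 and 0.22 against 0.23, 0.15, -0.04, -0.78 and -0.55. Its groups overlapped (-0.25 ± 0.24, FDR = 0.809), and its level was lower by -0.68 in total RNA and by -0.93 in polysome RNA.

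**Figure D4:**
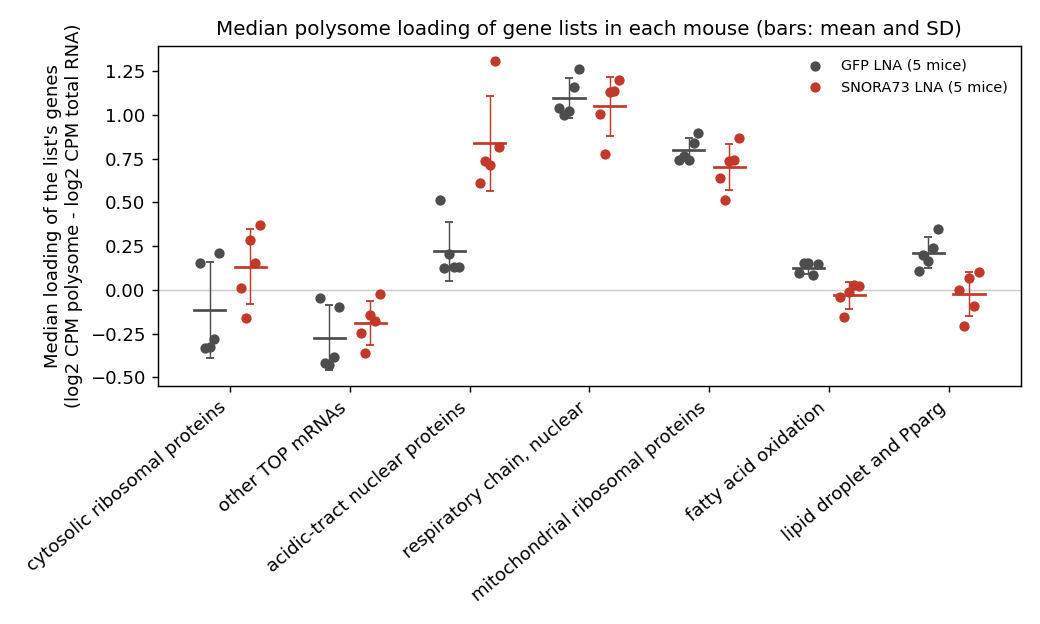
Median polysome loading (log2 CPM in polysome RNA minus log2 CPM in total RNA, vertical axis) of the genes of 7 lists in each GFP LNA mouse (grey) and SNORA73 LNA mouse (red), with bars at the mean and SD of each group. Ribosomal proteins run from -0.33 to 0.21 and from -0.16 to 0.37 and overlap, whereas fatty acid oxidation runs from 0.09 to 0.16 and from -0.16 to 0.03 and does not.

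Of the 2 genes of the targeted locus, Snhg3, the host of SNORA73, had a loading of 0.13, -0.34, -0.43, -0.94 and -0.22 with the GFP LNA and 0.08, -0.31, -0.31, -1.27 and -0.33 with the SNORA73 LNA. The groups covered one another (-0.07 ± 0.27, SE, edgeR FDR = 0.967). Rcc1, the neighbouring gene for the exchange factor of Ran, had -0.23 ± 0.20 (FDR = 0.793), with SNORA73 LNA mouse 6 alone at -0.60 and the other 4 between 0.07 and 0.32. Across 16 hosts of small nucleolar RNAs the median difference was 0.10 and 11 were positive (all genes, 46.9%). At an unadjusted p under 0.05, 1 of the hosts had higher loading (all genes, 5.02%) and 0 lower (3.02%). Gas5, the most abundant of them and itself a TOP RNA, had 0.49 ± 0.15 (FDR = 0.467), and Snhg20 had 0.51 ± 0.41. Among 10 core proteins of small nucleolar ribonucleoproteins the median was 0.06, from -0.03 to 0.10 over the alternative fits. Dkc1, the pseudouridine synthase that H/ACA RNAs guide, had a loading of -0.09 to 0.21 with the GFP LNA and 0.28 to 0.78 with the SNORA73 LNA, with no overlap (0.44 ± 0.12, FDR = 0.370). Its partner Nop10 had -0.25 ± 0.11 (FDR = 0.610).

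Of a list of 6 long noncoding RNAs that stay in the nucleus, 3 were tested and none of them passed the FDR. Malat1 and Neat1 had groups that did not overlap, with higher loading (all genes, 0.834%), and Neat1 was named after its values were seen. Malat1, a nuclear speckle RNA, had a loading of -1.75, -2.24, -2.23, -2.47 and -1.95 in the GFP LNA mice and -0.92, -0.89, -1.41, 0.41 and -0.99 in the SNORA73 LNA mice, with no overlap. The difference was 1.36 ± 0.26 (SE, edgeR FDR = 0.137), and mouse 11 stood far above the rest of its group. In polysome RNA Malat1 ranged from 87.4 to 145 CPM with the GFP LNA and from 216 to 1383 CPM with the SNORA73 LNA. Neat1, the scaffold of paraspeckles, had -1.03, -1.27, -1.29, -1.17 and -1.58 against -0.65, -0.56, -0.98, -0.51 and -0.67, again with no overlap (0.59 ± 0.13, FDR = 0.242). For Neat1 the difference lay in total RNA, which was lower by -0.70, rather than in polysome RNA, at -0.11. Kcnq1ot1 had 0.21 ± 0.26, and its groups overlapped. These 3 RNAs are not translated, so their polysome RNA measures what was recovered in those fractions and not ribosome engagement, and its part in the differences of other genes was not tested.

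The remaining genes with the smallest p and higher loading were of several kinds. Zeb2, a zinc finger transcription factor, had -0.33, -0.70, -0.82, -1.04 and -0.78 with the GFP LNA against 0.21, 0.27, -0.02, 0.64 and 0.17 with the SNORA73 LNA, with no overlap (0.997 ± 0.156, SE, edgeR FDR = 0.0794). Spop, the substrate adaptor of a cullin-3 ubiquitin ligase, had -0.99, -1.42, -1.17, -1.34 and -1.29 against -0.55, -0.68, -0.68, -0.15 and -0.56, also with no overlap (0.72 ± 0.12, FDR = 0.115). Rsbn1, which encodes a nuclear protein, had -0.03 to 0.49 against 0.75 to 1.20 (0.71 ± 0.15, FDR = 0.242). Gm48116 and Gm26619 differed by 2.11 ± 0.38 and 1.49 ± 0.27, and both were lower in total RNA, by -0.69 and -0.63. Gm48116 had 5 to 62 counts in any library. Gm15500 (0.73 ± 0.14) is annotated as a pseudogene, and how its reads were divided with its parent gene is uncertain.

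Of genes with lower loading, Oat encodes the mitochondrial ornithine aminotransferase. Its loading was -0.47, -0.32, -0.30, -0.33 and -0.34 with the GFP LNA and -0.72, -0.71, -0.70, -0.92 and -0.76 with the SNORA73 LNA, and the groups did not overlap, as in 0.906% of genes in this direction (-0.41 ± 0.09, SE, edgeR FDR = 0.242). Ddx19a, an RNA helicase of mRNA export, had -0.62 ± 0.13 (FDR = 0.242), with -0.63 to -0.21 against -1.42 to -0.87. Noa1, a GTPase needed for mitochondrial translation, had 0.27, 0.27, 0.27, 0.29 and 0.36 against -0.19, -0.08, -0.11, -0.44 and -0.19 (-0.50 ± 0.12, FDR = 0.300). Further down, Clcc1 of the ER membrane (-0.48 ± 0.12), Thap11 (-0.50 ± 0.13), Afmid of tryptophan breakdown (-0.52 ± 0.14) and Timm23, the channel of the inner mitochondrial membrane (-0.40 ± 0.11), had FDRs from 0.342 to 0.367. Mup9 and ENSMUSG00000107188 of the major urinary protein family had identical counts in all libraries and count as 1 gene (-0.65 ± 0.17, FDR = 0.342).

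In 3 genes with a small p the fitted value rests on libraries at 0 and is not given. Gm15387 had 0 counts in total RNA of all 5 GFP LNA mice and 194, 220, 125, 278 and 50 counts in that of SNORA73 LNA mice 4, 6, 10, 11 and 12, and 843 to 3753 counts in polysome RNA of either group. Gm28437 had 1, 361, 1337, 1 and 11 counts in polysome RNA of the GFP LNA mice and at most 21 in that of the SNORA73 LNA mice. Rsc1a1 had 305 and 312 counts in polysome RNA of GFP LNA mice 2 and 3 and 0 counts there in SNORA73 LNA mice 4, 6, 10 and 11. An estimated count that is 0 in some libraries and high in others can come from how shared reads were assigned.

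Among 18 ER chaperones the median difference was -0.06, with 3 higher and 1 lower at unadjusted p values under 0.05 (all genes, 5.02% and 3.02%). Canx, the glycoprotein chaperone calnexin, had -0.21, -0.63, -0.57, -0.49 and -0.49 with the GFP LNA and -0.06, 0.05, 0.07, 1.06 and -0.08 with the SNORA73 LNA (0.68 ± 0.19, SE, edgeR FDR = 0.367), with no overlap and mouse 11 far above its group. Hsp90b1 (0.42 ± 0.15) and Herpud1 (-0.26 ± 0.11) lay on opposite sides of 0, neither past the FDR. Among 11 genes of polyamine metabolism the median was -0.01. Oaz1, the antizyme whose translation needs a ribosomal frameshift, had 0.77, 1.09, 1.06, 1.03 and 0.99 against 0.76, 0.39, 0.70, 0.37 and 0.70 (-0.40 ± 0.11, FDR = 0.367), and the groups were narrowly apart. Amd2, of the same pathway, had 0.77 ± 0.40. The 2 haemoglobin mRNAs, from red cells in the tissue, had -0.31 ± 0.12 (Hbb-bs) and -0.29 ± 0.12 (Hba-a1). Before TMM scaling, both genes together summed to 241 to 498 CPM in total RNA of the GFP LNA mice and 97.8 to 407 CPM in that of the SNORA73 LNA mice.

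The difference in loading varied with the span of the gene on the genome. In quintiles of the genes with a RefSeq span, the median difference was -0.06, -0.06, -0.04, 0.01 and 0.06 from the shortest to the longest. Genes with higher loading at an unadjusted p under 0.05 made up 3.71% of the shortest quintile (up to 7100 bp) and 8.90% of the longest (from 64466 bp), and genes with lower loading 4.05% and 1.41%. Median loading of the longest quintile was -0.18, -0.26, -0.28, -0.29 and -0.32 in the GFP LNA mice and -0.20, -0.09, -0.24, -0.17 and -0.29 in the SNORA73 LNA mice, which overlapped. The difference also varied with the loading itself. Its median was 0.09 in the decile of genes with the lowest mean loading, -0.06 in the seventh decile and -0.03 in the highest.

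**Figure D5:**
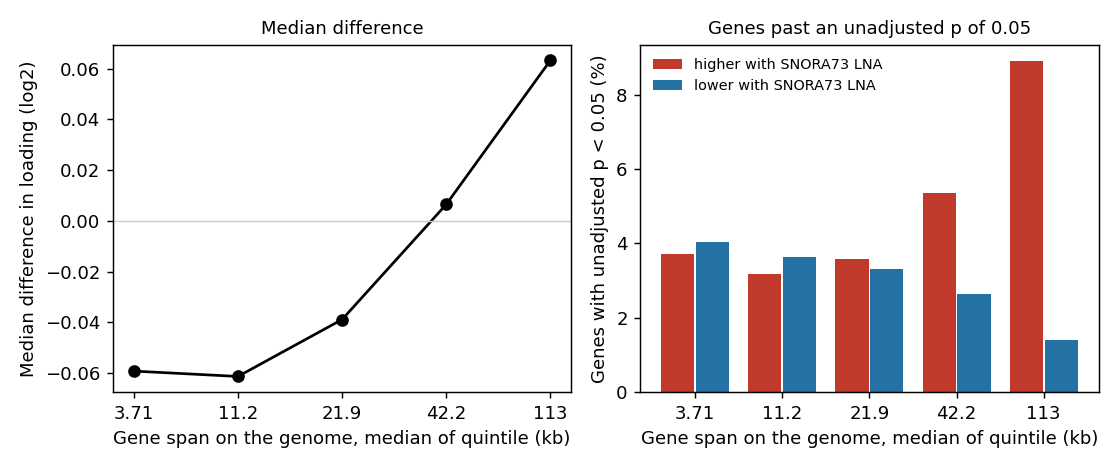
Median difference in polysome loading between SNORA73 LNA and GFP LNA mice (left, log2) and percent of genes with an unadjusted p under 0.05 (right, higher in red and lower in blue) by quintile of gene span on the genome, labelled with the median span in kb. From the shortest to the longest quintile the median goes from -0.06 to 0.06, and genes with higher loading go from 3.71% to 8.90%.

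Over all genes, no difference in the spread of loading within a mouse was detectable between the groups. The SD of loading over genes was 0.835 ± 0.086 (SD, n = 5) with the GFP LNA and 0.864 ± 0.142 (SD, n = 5) with the SNORA73 LNA. The difference of 0.029 had a two-sided exact permutation p of 0.698, where the smallest p the design allows is 0.00794. Across genes, which are not independent replicates, the loading of mouse 6 correlated with that of other mice at 0.34 to 0.49, and that of the remaining mice with each other at 0.52 to 0.76. Mouse 6 thus stood apart from both groups. Without it, Anp32b differed by 1.33 (edgeR FDR = 0.0286), and the median differences were 0.34 for the ribosomal protein list, 0.42 for the acidic-tract list, -0.21 for the lipid droplet list and -0.04 for the fatty acid oxidation list.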

How the data were processed

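Total and polysome RNA from the livers of 10 mice was measured by RNA-seq, 1 library of each per mouse. The files deposited hold estimated counts summed over each gene's transcripts. To make them, the authors selected polyadenylated RNA, sequenced paired reads of 100 bases, filtered at a Phred quality of 15 with fastp, removed rRNA reads with bowtie, estimated counts with kallisto against Ensembl 102 and took them to gene level with tximport. The study describes the reads as reverse stranded, and whether kallisto used the strand is not given in the sources used here.

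Estimated counts were rounded to whole numbers (14.3% of values were not whole). Of 53028 gene identifiers 51903 matched a symbol, and 0 columns lacked a sample. Genes over 0.5 CPM in 4 or more libraries were kept, scaled by TMM and tested in edgeR 4.0.16 (R 4.3.3) for the interaction of RNA and LNA, with the mouse as a block and Benjamini-Hochberg adjustment over all genes. The SE beside a difference is its absolute value divided by the square root of the F statistic of the edgeR test. Loading per mouse used a prior count of 2. The pairing comes from the mouse number, since both libraries are of 1 liver, and deviations of total and polysome RNA from their group means correlated at 0.13 to 0.58 within each mouse. On simulated counts with 200 of 13795 genes changed by 1 on the log2 scale, this interaction test recovered 74.0% and called 9 unchanged genes. The changed genes had a mean of at least 30 counts. Each gene was drawn on its own from the fitted model, without shifts in loading shared by many genes of a mouse. The recovery in these data can therefore differ.

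The genes named were the 12 with the smallest p in each direction at a mean of at least 30 counts, the highest, lowest and most abundant gene of each list described by its members, genes the study names, and a few named after their values were seen (Neat1, Hmgb2, Ptma, Ncl, Smarce1, Tbc1d7 and Lamtor5). Some genes that this rule names are not reported here. Members, lists and alternatives were chosen with earlier results of these data known, and lists were given no test. Alternatives used limma 3.58.1 and DESeq2 1.42.0 among others. The study kept 4 mice per group without naming those left out, so all 5 were used here. RefSeq sequences and positions are of GRCm38.p6, and a count of 3 was the floor, for counting error only.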

Additional observations from a re-analysis of the deposited data

Results flagged for a closer look

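Anp32b was flagged because the LNA difference in polysome RNA and in total RNA differed by the interaction test, by 1.28 on the log2 scale. In 13 of 186 groups of 5 mice checked, 1 mouse lay apart from the other 4 by Dixon's criterion (critical value 0.71), which chance alone flags in about 1 in 20 groups. SNORA73 LNA mouse 11 was the mouse apart for Spop (loading -0.15, others -0.68 to -0.55), Malat1 (0.41, others -1.41 to -0.89), Canx (1.06, others -0.08 to 0.07), Ncl (1.73, others 0.85 to 1.05) and Oat (-0.92, others -0.76 to -0.70). SNORA73 LNA mouse 6 was apart for Rcc1 (-0.60, others 0.07 to 0.32) and Tufm (-0.20, others 0.45 to 0.65). GFP LNA mouse 1 was apart for Anp32e (0.52, others -0.04 to 0.09), Oat (-0.47, others -0.34 to -0.30), mt-Nd6 (0.75, others 0.00 to 0.20) and the median of the acidic-tract list (0.51, others 0.12 to 0.20). GFP LNA mouse 3 was apart for Cidec (1.75, others -0.28 to 0.26) and SNORA73 LNA mouse 12 for Set (-0.10, others 0.30 to 0.44).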

How the results depend on the processing

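Which genes passed the FDR depended on the tool and the filter. Against 1 higher and 0 lower, there were 6 higher with quality weights in limma-voom, 51 higher and 4 lower with DESeq2, 0 higher by limma on the per-mouse difference, and 0 higher and 1 lower with no replicate block. Library totals gave 5 higher and 1 lower, no filter beyond 1 count gave 116 higher and 30 lower, a CPM above 1 in every library gave 4 higher, and leaving out GFP LNA mouse 9 with SNORA73 LNA mouse 10 gave 0 higher. Leaving out 1 mouse at a time gave 0 to 3 higher and 0 to 2 lower. At an unadjusted p under 0.05, no replicate block left 281 higher and 120 lower, and leaving out 1 mouse gave 245 to 596 lower (245 without GFP LNA mouse 2 and 257 without mouse 3). Without the mouse as a block, where the pairing comes from the same liver, Anp32b no longer passed. The spread of polysome loading over genes differed between the groups by -0.0114 to 0.0717 with 1 mouse left out, being -0.00155 without SNORA73 LNA mouse 11 and -0.0114 without mouse 12. Genes with differences near 0 changed sign. Fitm1 was 0.00137 with quality weights, 0.00922 with DESeq2, 0.0192 with no replicate block, 0.00928 with DESeq2 size factors, 0.00552 with mitochondrial genes left out, and -0.0938 to 0.0782 without 1 mouse. With quality weights Rpl15 was 0.0169 and Snhg3 0.0271, and Ndufa4 was 0.0168 without mice 9 and 10 together. Without 1 mouse, Rpl15 ran from -0.0842 to 0.0182, Snhg3 from -0.20 to 0.13, mt-Co1 from -0.35 to 0.0461 and Tufm from -0.20 to 0.00775. The cause was not tested. The medians of the ribosomal protein, other TOP, acidic-tract, fatty acid oxidation and lipid droplet lists kept their sign in all 21 alternatives. Those of the translation factor, polyamine, snoRNP core protein, nuclear respiratory chain and mitochondrially encoded lists crossed 0 in at least 1.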
